A study of Danio rerio with 6 samples.

Results

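The genes described here encode parts of the light-sensing cascade of cone and rod photoreceptors, or, for guk1b, an enzyme that feeds it. They were measured in whole zebrafish larvae with and without a microbiota. They were chosen by name, with earlier results of these data known. The choice held 8 cone genes (opn1mw1, opn1sw1, opn1sw2, opn1lw1, gnat2, gngt2a, gnb3b and guk1b) and 2 rod genes (rho and gnat1). All 8 cone genes had a probeset, 9 probesets in all, and of the rod genes gnat1 had 2; rho is not analysed here. The 9 genes were thus read by 11 of 15502 tested probesets, and 8793 genes had a symbol of their own on the array. Total RNA came from whole larvae of strain C32 at 6 days post-fertilization, pooled at 28 to 80 larvae per sample and hybridised to 1 Affymetrix array per pool. The 3 germ-free pools were kept without microbes throughout, per their labels. The 3 colonized pools, labelled ex-germ-free conventionalized, were reared germ-free until day 3 and then carried the microbiota of conventionally raised zebrafish for the remaining days. Both groups were thus raised gnotobiotically, and a replicate is a pool, not a single larva. The eye is a small part of such a sample, and in whole-larva RNA fewer photoreceptors and less RNA per photoreceptor cannot be told apart.

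In a photoreceptor, light changes the shape of an opsin, the opsin activates the G protein transducin, and the transducin alpha subunit switches on a phosphodiesterase that breaks down cyclic GMP, which closes cation channels of the outer segment. Cones and rods run this cascade with separate sets of proteins: in cones gnat2, gnb3b and gngt2a encode the alpha, beta and gamma subunits of transducin, and in rods gnat1 encodes the alpha subunit. Zebrafish have cones for red, green, blue and ultraviolet light, each with its own opsin, and larval vision relies on cones before rods mature.

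Most of the cone genes chosen were lower in colonized larvae. Of the 8, 6 fell at an adjusted p under 0.05 (opn1mw1, opn1sw2, gnat2, gngt2a, gnb3b and guk1b), opn1sw1 and opn1lw1 were not called, and 0 rose. Over all probesets 0.413% were called lower and 1.28% higher. The count of 6 was not stable when single pools were left out: it dropped to 2 without either germ-free replicate 1 or colonized replicate 1, and to 1 without colonized replicate 2. Calls over all probesets dropped in these fits too, to 0.161%, 0.142% and 0.103% lower, in this order. The median log2 change of the 8 cone genes was -0.67, against 0.02 over all 8793 genes. Of 9 further cone cascade genes 0 were called lower, and their median was -0.20. The 8 were chosen with earlier results of these data known, so part of this contrast may follow from the choice. The rod gene gnat1 was not called on either probeset, at log2 changes of -0.18 and -0.17. The pools of the groups did not overlap for 7 of the 8 cone genes, with the colonized pools below, which held for 7.08% of all probesets. Fold changes given as log2 are on the scale log2(intensity + 32), colonized minus germ-free, and understate the change of dim genes.

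As facts of the whole series, median intensities per array lay between 86.0 and 93.8. Control probesets for both ends of acta1 give a sign of RNA quality: the log2 of the 3' over the 5' signal, with the dimmer of the 5' probesets, was 2.35 to 2.64 in germ-free and 2.79 to 3.00 in colonized pools. The same ratio for control probesets of gapdh overlapped between the groups. Their 3' and 5' intensities were 2872 and 2101, 2555 and 2064, and 3043 and 2003 in germ-free pools. In colonized pools they were 3201 and 2287, 3091 and 2556, and 3466 and 2776. Colonized replicate 3 had the lowest of the 3 colonized acta1 values, and its cone genes lay nearest to the germ-free pools. The part of RNA quality in the falls was not tested. Germ-free replicate 3 correlated least with the other pools of its group (mean r 0.977 over all probesets, where the other arrays had 0.982 to 0.990), and its array number stands apart from the rest. Without it 7 cone genes were called lower, against 0.542% of all probesets in that fit.

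**Figure D1:**
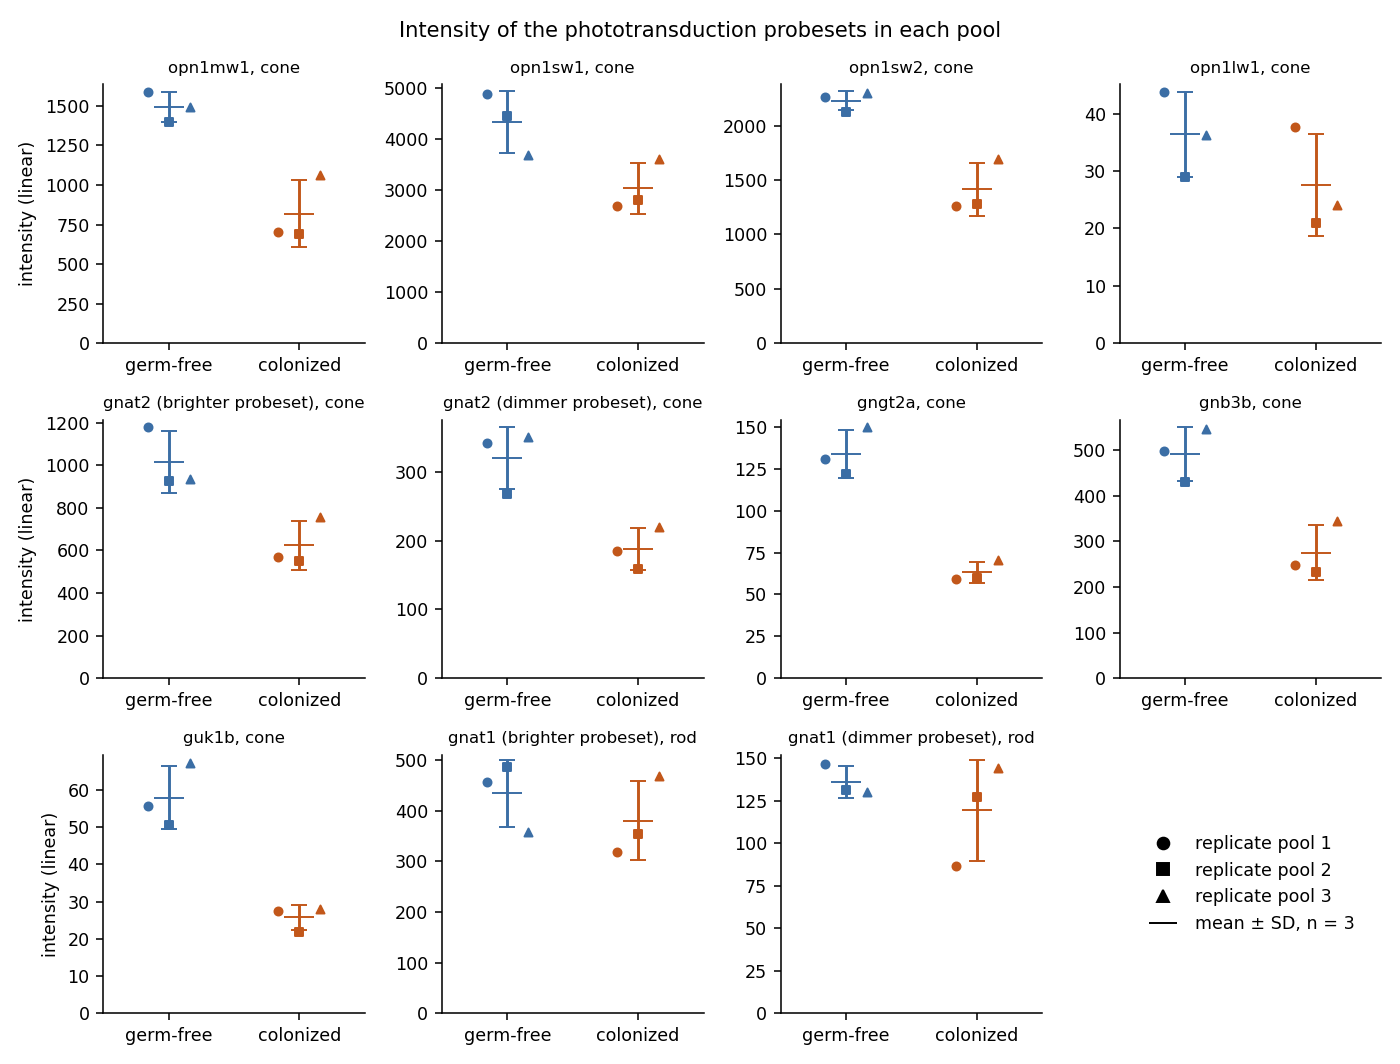
Linear intensity (vertical axes, each starting at 0) of the 11 phototransduction probesets in the 3 germ-free (blue) and 3 colonized (orange) pools; marker shapes give the replicate number, and horizontal bars with whiskers the mean ± SD. The 2 groups are apart for every cone probeset except that of opn1lw1, and overlap for both probesets of rod gnat1.

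Opsins come first in the cascade. The green opsin opn1mw1 had intensities of 1586, 1399 and 1494 in the germ-free pools and 700.3, 690.4 and 1063 in the colonized pools. All colonized values lay below all germ-free values, and colonized replicate 3 stood well above the other two. Its mean went from 1493 ± 93.4 to 818 ± 212 (SD, n = 3 pools per group), a log2 change of -0.87 (95% interval -1.20 to -0.54, adjusted p = 0.0160). The blue opsin opn1sw2 had 2265, 2126 and 2297 in germ-free pools and 1263, 1283 and 1694 in colonized pools. Again colonized replicate 3 was the highest of its group and still below every germ-free pool. The log2 change of opn1sw2 was -0.66 (-0.90 to -0.41, adjusted p = 0.0144).

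The ultraviolet opsin opn1sw1 gave 4891, 4445 and 3692 in germ-free pools and 2694, 2800 and 3615 in colonized pools. The groups did not overlap, but germ-free replicate 3 and colonized replicate 3 lay close to each other. The log2 change of opn1sw1 was -0.51 (-0.79 to -0.24) and was not called at an adjusted p of 0.0814. It was called lower without either of these pools (adjusted p = 0.0136 without germ-free replicate 3 and 0.0259 without colonized replicate 3), and not without any of the other 4 pools (0.182 to 0.317). Quantile normalization (adjusted p = 0.0293), equal array medians (0.0333) and array weights (0.00767) called it too. In this order, these settings called 120, 96 and 204 of all probesets lower, against 64 in the main fit. The change of opn1sw1 was not called with the replicate block (0.125), without the variance trend (0.121) or with the filter on dim probesets (0.0783). With 16 or 100 added it was not called either (0.0872 and 0.0733). The red opsin opn1lw1 was dim, at 43.8, 29.0 and 36.3 in germ-free and 37.6, 20.9 and 24.1 in colonized pools, below the array medians. These groups overlapped, and the log2 change was -0.20 (-0.47 to 0.07, adjusted p = 0.513). Its interval reaches from a fall close in size to the estimate for opn1sw1 to a slight rise.

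Neighbouring opsin genes did not share the fall to the same extent in their estimates. The green opsin genes opn1mw1, opn1mw2, opn1mw3 and opn1mw4 follow each other on the chromosome in the RefSeq annotation, and 2 of the other copies were measured. The opn1mw2 probeset had 198, 218 and 217 in germ-free and 174, 204 and 112 in colonized pools, with a log2 change of -0.35 (-0.71 to 0.02, adjusted p = 0.404). The opn1mw4 probeset had 391, 363 and 298 in germ-free and 371, 309 and 294 in colonized pools, with a log2 change of -0.10 (-0.38 to 0.18, adjusted p = 0.788). Colonized replicate 3, the highest colonized pool for opn1mw1, was the lowest of all 6 pools for both of these copies. The copies are close relatives, and whether their probesets also bind transcripts of the other copies was not tested. In the same annotation opn1sw2 lies directly beside opn1lw1. The former was called lower and the latter was not. With a mean intensity of 31.95, opn1lw1 is a weak comparison, and the difference between the 2 changes was not tested.

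Transducin subunits follow the opsins. For the cone alpha subunit gnat2 the brighter probeset had 1182, 928 and 937 in germ-free pools and 569.8, 548 and 757 in colonized pools. The dimmer gnat2 probeset had 341, 268 and 351 in germ-free pools and 185, 159 and 219.9 in colonized pools. Both probesets showed groups apart and nearly the same change, -0.68 ± 0.14 (SE, adjusted p = 0.0396) and -0.68 ± 0.13 (adjusted p = 0.0344). They read the same transcript and are not independent of each other.

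The cone beta subunit gnb3b had 498, 429.9 and 546 in germ-free and 248, 232 and 344 in colonized pools. Its groups were apart, with a log2 change of -0.78 ± 0.14 (adjusted p = 0.0251). The cone gamma subunit gngt2a had 131, 122 and 149.8 in germ-free and 59.0, 59.7 and 70.6 in colonized pools. Colonized values of gngt2a lay close together and far from the germ-free values, and mean intensity fell by 52.9%. The log2 change of gngt2a was -0.80 ± 0.10 (adjusted p = 0.00276). It was the one cone gene called lower in each of the 6 fits that left out a pool, with log2 changes from -0.86 to -0.74; its size depends on the added intensity, at -0.92 with 16 and -0.52 with 100.

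Guanylate kinase, encoded by guk1b, phosphorylates GMP and so feeds the resynthesis of cyclic GMP after light. It had 55.7, 50.7 and 67.2 in germ-free pools and 27.4, 21.9 and 28.0 in colonized pools. The groups were apart: mean intensity fell by 55.5%, with a log2 change of -0.64 ± 0.10 (adjusted p = 0.00830). All values of guk1b lie below the array medians, and its mean exceeds that of 17.6% of genes, so its size in percent rests on dim signals. The choice counts guk1b as a cone gene, but which cells of the whole larva gave its signal was not tested. Its relative guk1a was dimmer than guk1b in germ-free pools, with values of 30.3, 18.4 and 30.2. Its colonized values were 31.9, 23.2 and 19.7, and the groups overlap (log2 change -0.03, adjusted p = 0.933). As guk1a lay near the colonized values of guk1b in both groups, it is a weak comparison.

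The rod alpha subunit gnat1 was at 457, 485 and 358 in germ-free and 319, 354 and 467 in colonized pools on its brighter probeset. Its dimmer probeset had 147, 131 and 130.0 in germ-free and 86.4, 127 and 144 in colonized pools. On both, colonized replicate 1 was the lowest pool and colonized replicate 3 lay inside the germ-free range. The log2 changes had 95% intervals of -0.52 to 0.15 and -0.48 to 0.14 (adjusted p = 0.651 and 0.652). Both intervals reach from falls close in size to the estimate for opn1sw1 to slight rises, so that missing the threshold does not show an unchanged level.

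**Figure D2:**
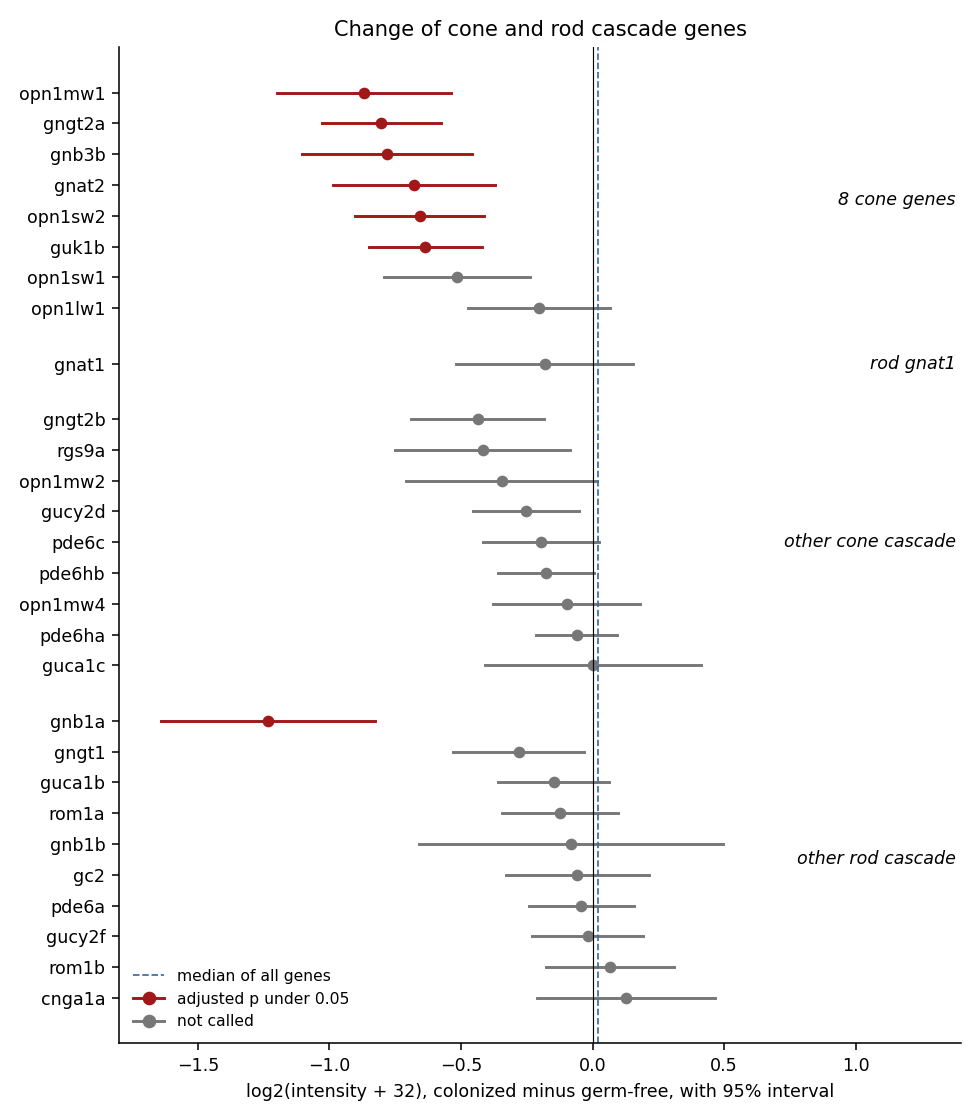
Log2 change (colonized minus germ-free, horizontal axis, with 95% interval) of the 8 cone genes, rod gnat1 and other genes of the cone and rod cascades, by the brightest probeset of each gene; red marks an adjusted p under 0.05 and the dashed line the median of all genes. The cone genes that were called lie between -0.87 and -0.64, while 0 of the 9 other cone genes and 1 of the 10 other rod genes (gnb1a) were called lower. The 8 cone genes were chosen with earlier results of these data known, and part of this contrast may follow from that choice.

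Cone and rod forms of the same subunit were set against each other within each array, as the log2 value of one gene minus that of its partner, so that only the change of this difference between the groups is read. For gnat2 minus gnat1 the differences were 1.31, 0.89 and 1.31 in germ-free pools and 0.78, 0.59 and 0.66 in colonized pools. The cone form was thus lower relative to the rod form in each colonized pool than in any germ-free pool, with a mean change of -0.50 (exact two-sided permutation test, p = 0.10, the smallest that 3 pools against 3 allow). Over the 8 pairs compared the adjusted p was 0.16. For gngt2a minus gngt1, the rod gamma subunit, the means were -1.98 ± 0.03 (SD) in germ-free and -2.50 ± 0.10 in colonized pools, again with no overlap (exact permutation p = 0.10). Their difference, -0.52, was -0.63 with 16 and -0.27 with 100 added in place of 32. The estimate for gngt1 itself was -0.28 (-0.53 to -0.03, adjusted p = 0.313), with 625, 576 and 669 in germ-free and 444, 509.8 and 574 in colonized pools. The other cone gamma gene gngt2b was brighter than gngt2a (mean intensity 1231, against 98.6) and had a smaller change of -0.44 (adjusted p = 0.104). As gngt2b was not paired with gngt1, the gamma comparison holds for gngt2a only.

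The beta subunits gave no such separation. Of the rod-type beta genes, gnb1b was not called (log2 change -0.08, -0.66 to 0.49, adjusted p = 0.925) and its germ-free pools spread from 289 to 754. The brighter probeset of gnb1a fell further than any cone gene, at 1001, 573 and 732 in germ-free and 248, 342 and 318 in colonized pools (log2 change -1.23 ± 0.18, adjusted p = 0.00732). Its second probeset overlapped between the groups, with 560.2, 496 and 154 in germ-free and 461, 619 and 567 in colonized pools. The gene is expressed widely outside the eye, and these probesets disagree, so gnb1a gives no settled rod value. Accordingly gnb3b minus gnb1b (exact permutation p = 0.20) and gnb3b minus gnb1a (p = 0.30) overlapped between the groups, and their changes had opposite signs (-0.70 and 0.45).

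Paralogs of the cone genes were compared in the same way, and no pair passed a test. The within-array difference gngt2a minus gngt2b, its sister gamma gene, was -3.13 ± 0.03 in germ-free and -3.49 ± 0.08 in colonized pools, with no overlap (change -0.37, exact permutation p = 0.10). With 100 added instead of 32 this change was -0.11 (exact permutation p = 0.30). For opn1mw1 minus opn1mw4 the means were 2.00 ± 0.18 and 1.23 ± 0.46, also apart (exact permutation p = 0.10). The pair opn1mw1 minus opn1mw2 overlapped (2.65 ± 0.15 and 2.12 ± 0.71, exact permutation p = 0.40). The pair guk1b minus guk1a went from 0.63 ± 0.12 to 0.02 ± 0.17 without overlap (exact permutation p = 0.10), a change of -0.60 that was -0.31 with 100 added. The pairs were built around genes already known to be lower, and no pair of 3 against 3 pools can reach a p under 0.05.

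**Figure D3:**
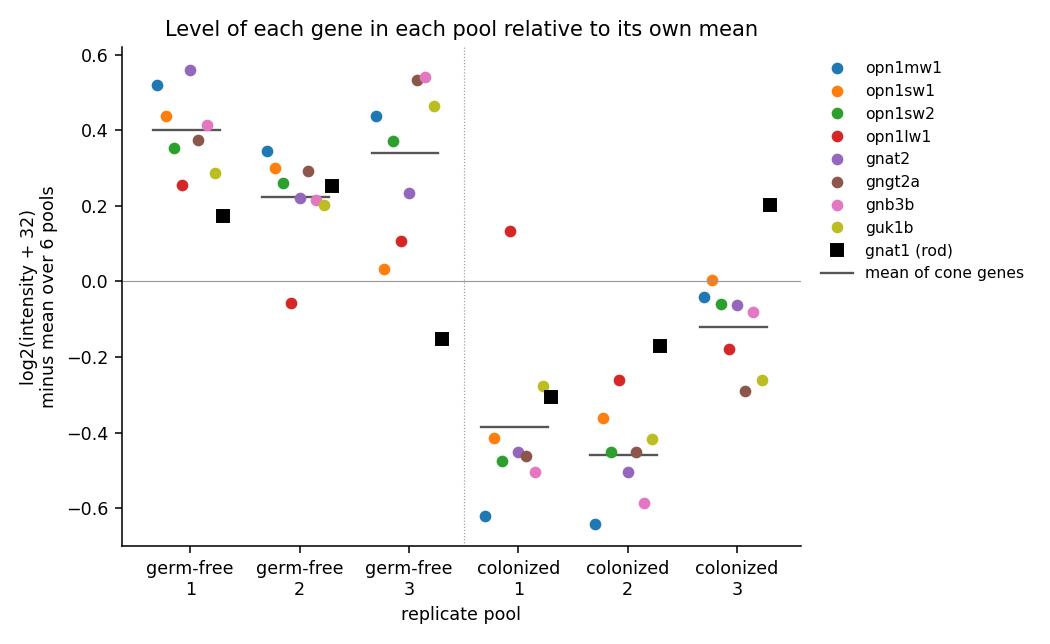
Level of each gene in each pool, as log2(intensity + 32) minus the gene's own mean over the 6 pools (vertical axis), with cone genes as coloured circles, rod gnat1 as black squares and the mean of the cone genes as a grey bar. The cone mean lies between 0.22 and 0.40 in germ-free pools and between -0.46 and -0.12 in colonized pools, where replicate 3 is the highest, whereas gnat1 does not separate the groups.

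The cone genes also placed the colonized pools in a similar order. Relative to each gene's own mean, the average of the 8 cone genes was 0.40, 0.22 and 0.34 in germ-free pools 1 to 3 and -0.38, -0.46 and -0.12 in colonized pools 1 to 3. Colonized replicate 3 was the highest colonized pool for 7 of the 8 cone genes, the exception being opn1lw1. Its array also had the highest median of the colonized arrays (93.8, against 90.1 in each of the others). The share of all genes that were highest in this pool was not counted, so the 7 cannot be weighed against it. The lowest of all 6 pools was colonized replicate 2 for 5 genes and colonized replicate 1 for 3 genes. Germ-free pools were ordered less alike, with replicate 1 highest for 4 genes and replicate 3 for the other 4. The spread among colonized pools was widest for opn1mw1, 0.60 between its highest and lowest value, and narrowest for guk1b at 0.15 and gngt2a at 0.17.

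By gene, gngt2a and guk1b were called lower without colonized replicate 1 and without germ-free replicate 1, and gngt2a alone without colonized replicate 2. Over all probesets these fits called 0.142%, 0.161% and 0.103% lower, in this order. Without colonized replicate 3 there were 7, all except opn1lw1, against 0.406% of all probesets. All 11 probesets kept a negative change in each of these fits, but without colonized replicate 1 the gnat1 changes were only -0.08 and -0.004.

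Other genes of the cascade were mostly not called. Of 9 further cone cascade genes measured, 0 were called by limma, 3 were lower at an unadjusted p under 0.05, 8 had changes below 0 and the median was -0.20. Over all genes 4.95% were lower at that unadjusted p and 44.1% lay below 0. The largest estimates were those of gngt2b (1421 ± 158 to 1042 ± 136, log2 change -0.44, adjusted p = 0.104), rgs9a, which speeds the shut-off of transducin (142 ± 38.7 to 96.4 ± 4.97, -0.42, adjusted p = 0.256), and opn1mw2, given above. The catalytic subunit of the cone phosphodiesterase, pde6c, had 1067 ± 82.9 and 928 ± 90.1 (-0.20, adjusted p = 0.442). The gene gngt2b was called, and the count was 1, under quantile normalization, array weights, the replicate block and without germ-free replicate 2. In this order, these fits called 120, 204, 65 and 62 of all probesets lower, against 64 in the main fit. Over 10 further rod cascade genes, 1 was called lower (gnb1a), 0 higher, and the median was -0.07; gngt1 is given above, and guca1b, a calcium sensor of guanylate cyclase, had 75.7 ± 9.26 and 65.1 ± 4.05 (-0.15, adjusted p = 0.551). Of 8 genes for shared shut-off and calcium sensing, 0 were called by limma, 3 were lower at an unadjusted p under 0.05 and the median was -0.18. The largest estimate among them was -0.54 for gnb5b, a partner of the RGS9 protein (152 ± 30.9 to 94.2 ± 18.5, adjusted p = 0.128), followed by phosducin pdcb (-0.38, adjusted p = 0.267) and the recoverin rcvrn3 (-0.30, adjusted p = 0.369).

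Beyond the cascade, 2 of 7 genes measured from a list for the outer segment and photoreceptor synapse were called lower. The synapse genes of that list were not measured, and prph2a, prph2b and prom1b were not called. The elongase elovl4b, which makes very long fatty acids of photoreceptor membranes, had 233, 210.1 and 216 in germ-free and 94.1, 109 and 124 in colonized pools (log2 change -0.84 ± 0.11, adjusted p = 0.00287). The mitochondrial creatine kinase ckmt2a, listed here for photoreceptors though the gene family also serves muscle, had 451, 421 and 391 in germ-free and 207, 219 and 295 in colonized pools (-0.75 ± 0.13, adjusted p = 0.0172). Both were lower in every colonized pool than in any germ-free pool, and in both colonized replicate 3 was the highest of its group. The median of the 7 genes was -0.18, and peripherin prph2b, a disc rim protein, had 429 ± 39.6 and 353 ± 20.0 (-0.26, adjusted p = 0.308).

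Of 10 visual cycle genes, which regenerate and carry the chromophore, 0 were called by limma, 5 passed an unadjusted p under 0.05 (3 lower), 5 lay below 0 and the median was -0.08. The isomerase rpe65a of the pigment epithelium had the largest estimate, from 338 ± 35.8 to 181 ± 59.2 (-0.83, adjusted p = 0.0628), with groups that did not overlap. A second probeset of rpe65a had a change of -0.67. The retinol receptor stra6 had 118 ± 26.1 and 62.9 ± 18.0 (-0.67, adjusted p = 0.0802) and the opsin-like rgrb 385 ± 35.5 and 284 ± 56.7 (-0.41, adjusted p = 0.226). Over all 44 further genes of the cascade, outer segment and visual cycle, 3 were called lower (gnb1a, elovl4b and ckmt2a) and the median was -0.15. Of the 44, 35 lay below 0, against 44.1% of all genes, and for 15 the colonized pools lay below all germ-free pools, against 7.08% of all probesets. Among lists described below, 12 of 18 transcription factor genes and 4 of 5 pineal genes lay below 0 too. So did 11 of 15 bipolar, horizontal and amacrine cell genes, 3 of 4 pigment cell genes and 7 of 11 lens genes. Only 2 of 7 ganglion cell genes and 1 of 10 Muller glia genes did.

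Among 18 transcription factor genes of the retina and its photoreceptors, 0 were called by limma, 3 were lower at an unadjusted p under 0.05 and the median was -0.08. The largest estimates were neurod1, which acts in photoreceptor development (226 ± 16.3 to 159.9 ± 14.3, -0.43, adjusted p = 0.0801), crx, which activates photoreceptor genes (271 ± 34.2 to 209 ± 34.2, -0.33, adjusted p = 0.305), and tbx2b, which is needed for ultraviolet cones (-0.30, adjusted p = 0.242). The 95% interval of crx ran from -0.62 to -0.04. In the pineal, which also senses light, 0 of 5 listed genes were called by limma and 1 was lower at an unadjusted p under 0.05 (median -0.14): gngt1, shared with rods, is given above, exorhodopsin exorh had -0.14 (adjusted p = 0.679) and the melatonin enzyme aanat2 -0.18 (adjusted p = 0.574).

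Genes listed for other cells of the eye were read in the same way, in RNA of whole larvae. Which tissues gave their signals was not tested. Of 15 bipolar, horizontal and amacrine cell genes 4 were lower at an unadjusted p under 0.05 and 1 was called lower, the bipolar cell factor vsx1, with 132, 132 and 131 in germ-free and 72.6, 95.2 and 82.3 in colonized pools (log2 change -0.51 ± 0.10, adjusted p = 0.0310). The median of the 15 was -0.13, and tfap2a (-0.32, adjusted p = 0.154) and barhl2 (-0.29, adjusted p = 0.543) had the next largest estimates. Of 7 ganglion cell genes 0 were called by limma, also at an unadjusted p under 0.05, with a median of 0.04 and the largest estimates for gap43 (-0.16, adjusted p = 0.633), thy1 (0.14, adjusted p = 0.720) and isl2a (0.11, adjusted p = 0.657). The 10 genes listed for Muller glia, most of which other glia and tissues express too, had a median of 0.18; 4 were higher at an unadjusted p under 0.05 and 1 was called higher, the filament gene vim (449 ± 13.8 to 646 ± 72.9, 0.49 ± 0.10, adjusted p = 0.0488). Of the rest cahz (0.92, adjusted p = 0.139) and the glutamine synthetase glulb (0.38, adjusted p = 0.0636) had the largest estimates. A second glulb probeset had a change of 0.11 (adjusted p = 0.673), with groups that overlap. Over all 8793 genes, 1288 passed an unadjusted p under 0.05, 435 of them lower and the rest higher. Of 4 pigment cell genes 0 were called by limma and 1 was lower at an unadjusted p under 0.05 (median -0.11), with dct at -0.29 (adjusted p = 0.224) and mitfa and pmelb at -0.11 each (adjusted p = 0.722 and 0.626). Of 11 lens genes 1 was called lower, crybb1 (4804 ± 20.8 to 3934 ± 227, -0.29 ± 0.06, adjusted p = 0.0430), the median was -0.05, and crygs2 (-0.16, adjusted p = 0.585) and cryaa (0.13, adjusted p = 0.591) were not called.

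Summed over the list, cone gene intensity was 9219 to 10652 in germ-free and 5599 to 7596 in colonized pools. Colonized pools also lay below germ-free pools in the summed intensity of most other lists: other cone cascade (9472 to 11238 and 9125 to 9236), other rod cascade (2218 to 2985 and 1630 to 2009.2), outer segment and synapse (1575 to 1672 and 1157 to 1349.7), transcription factors (2208 to 2392 and 2106 to 2109), pineal (888 to 989.5 and 742 to 861), pigment cells (231 to 259.8 and 204 to 211) and lens (11022 to 11611 and 9860 to 10729.3). Muller glia genes lay the other way, at 6690.2 to 8103 in germ-free and 8378 to 9079 in colonized pools. Summed over all genes, the groups overlapped, at 2.25e+06 to 2.42e+06 in germ-free and 2.38e+06 to 2.51e+06 in colonized pools. Such sums weigh bright genes most and do not show that a list fell as a whole. The rod cascade sum holds the brighter gnb1a probeset (means 769 and 303), and the lens sum holds crybb1 (4804 and 3934). The median log2 changes of the rod cascade and lens lists were -0.07 and -0.05. The sums overlapped for ganglion cells, for bipolar, horizontal and amacrine cells, for the visual cycle, for shared cascade genes and for gnat1. The visual cycle sum rests mostly on its brightest genes, rbp4 (means 3659 in germ-free and 3663 in colonized pools) and rbp4l (2061 and 2366). Per gene, 1 probeset each, 0.535% of all genes were called lower and 1.51% higher, against which the counts of these lists can be read. Whether the share of eye tissue in a pool moved with the cone genes was not tested. The marker values do not measure that share, as which tissues of the whole larva gave their signals was not tested.

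**Figure D4:**
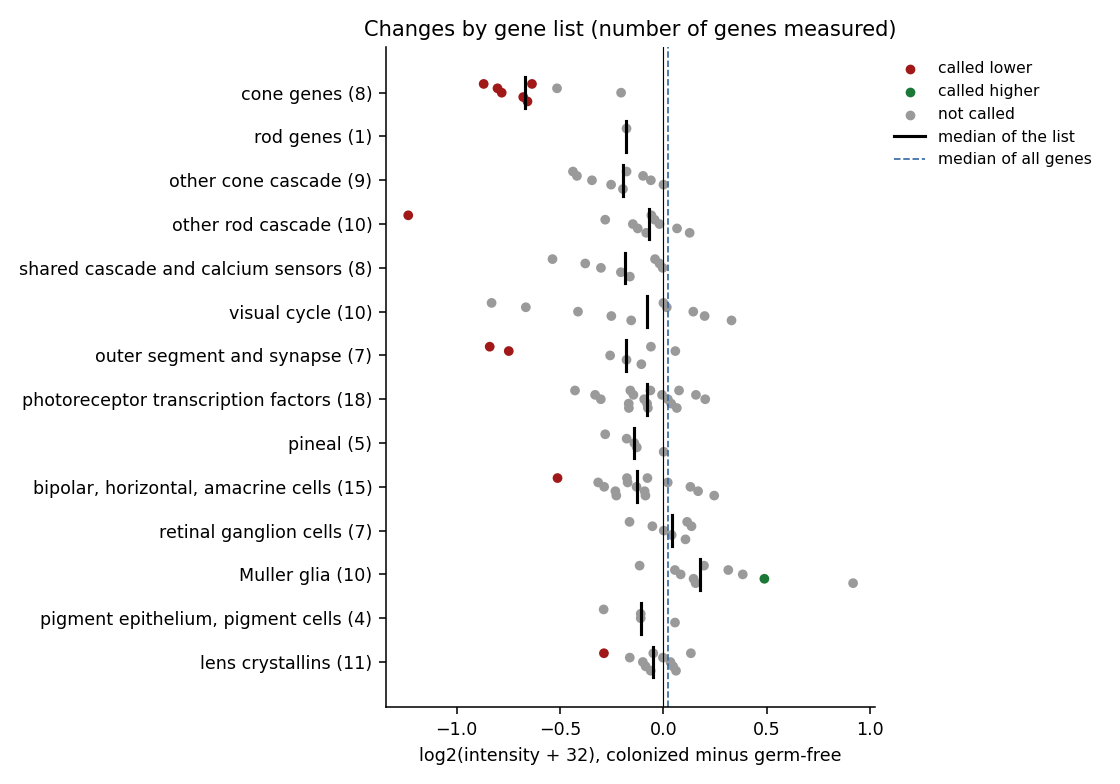
Log2 change (colonized minus germ-free, horizontal axis) of each measured gene of the lists for photoreceptors, other eye cells and the pineal, with 1 point per gene, red for called lower, green for called higher and grey for not called; black bars are list medians and the dashed line is the median of all genes, 0.02. The median of the cone genes is -0.67, and those of the other lists lie between -0.20 and 0.18. The cone genes were chosen with earlier results of these data known, so part of this distance may follow from the choice.

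Genes outside the class with the most similar course over the 6 pools were found by the root mean square difference, on the log2 scale, between a gene's centred values and the cone mean. Among 4733 genes with a mean intensity of at least 100, the 8 nearest were rbp2a (difference 0.061), fabp6 (0.064), etfdh (0.079), hadhb (0.088), hbegfa (0.089), tuba1b (0.093), slc25a3a (0.096) and znf106a (0.097). For scale, single cone genes differed from their own mean by 0.053 (opn1sw2) to 0.28 (opn1lw1), and rod gnat1 by 0.29. Each cone gene is part of that mean, which lowers its difference, whereas gnat1 and the 4733 genes are not. Retinol binding protein gene rbp2a, an enterocyte gene, had 1155, 1109.8 and 1044 in germ-free and 644, 618 and 795 in colonized pools, and the bile acid binding protein gene fabp6 had 1171, 1011 and 1158 against 600.2, 637 and 756. In both, colonized replicate 3 was the highest colonized pool, as for the cone genes. Of the 8, rbp2a, fabp6, etfdh, hadhb and hbegfa were called lower. The 8 were picked for likeness to the cone mean, so their falls and their pool order follow from the choice. None of the 8 belongs to the photoreceptor, eye and pineal lists used here; the nearest genes of such lists were ckmt2a at rank 10, gnb5b at rank 17, elovl4b at rank 23 and gngt2b at rank 30.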

How the data were processed

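The 6 arrays hold 3 germ-free and 3 colonized pools, grouped by the labels' microbial status. The authors' deposited table gives linear intensities, normalized by the invariant set method and summarised with dChip's PM-MM model, per the series' design text; present and absent calls were not used here, so no detection limit is known. Of 15617 probesets, 115 controls were left out. Symbols came from the platform annotation, updated through Entrez identifiers (10711 of 10795 single-symbol probesets matched RefSeq's GRCz12tu table, used for names and gene order only). A linear model with group as its term was fitted to log2(intensity + 32) with limma 3.58.1 in R 4.3.3 (trended moderated variances), two-sided, with Benjamini-Hochberg adjustment over 15502 probesets and calls at 0.05; the fit was tested on simulated data. Lists match exact symbols and count the brightest probeset of each gene by mean log2 value. Genes were named by rule: every measured gene chosen, and from each list the called members and the 3 largest changes. All further cone cascade genes measured were named too. The members, lists, pairs and tests were chosen with earlier results of these data known. Alternatives were added intensities of 16 and 100, a filter at a mean of 100, quantile and median scaling, array weights, variances without trend, the replicate block, and each pool left out. Correlations of deviations gave no clear sign that replicate numbers pair the pools. They were -0.084, 0.097 and 0.069 for equal numbers and -0.164 to 0.095 for unequal ones. With 3 pools per group this cannot exclude pairing. The number of pools limits the precision. No 2 arrays shared a value (0 identical). The planned comparison of opn1mw1 with rho was not run, as rho is not analysed here.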

Additional observations from a re-analysis of the deposited data

How the results depend on the processing

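All 11 probesets of the cone and rod genes kept a negative change under each alternative that tested them, and 0 of gnat1's 2 probesets were called in any. For gnat1 the sign means little: without colonized replicate 1 its changes were -0.08 and -0.004. The cone genes called lower numbered 6 with all pools and 4 to 7 under the alternatives that keep all pools; the 4 comes from the filter on dim probesets, which removes gngt2a and guk1b. On leaving out single pools the number ranged from 1 to 7, and the count of all probesets called, 263 with all pools, from 114 (without colonized replicate 2) to 410 (without germ-free replicate 3), with 173 without germ-free replicate 1 and 137 without colonized replicate 1. Array weights gave 569 probesets, 365 higher and 204 lower, and called 7 cone genes lower. Quantile normalization and equal array medians also called 7 cone genes lower. They called 120 and 96 of all 15502 probesets lower, against 64 in the main fit. The cause of these shifts was not tested. Of the calls on all probesets 75.7% were higher with the authors' scaling, 61.4% after quantile normalization and 64.1% with array weights; quantile normalization moved the median change of all probesets by -0.03 and other settings by less. With the replicate block 274 probesets and the same 6 cone genes were called. The pairing check gave no clear sign of pairing but cannot exclude it. With the block, gnat2 minus gnat1 was -0.50 (exact permutation p = 0.25, the smallest it allows). That difference ranged from -0.64 to -0.43 on leaving out single pools. The cone genes most open to a single pool were gnat2 (adjusted p up to 0.214), gnb3b (up to 0.155), opn1mw1 (up to 0.0977) and opn1sw2 (up to 0.0973). Dim signals limit opn1lw1, guk1b and gngt2a: with 16 and 100 added the log2 change was -0.82 and -0.33 for guk1b and -0.92 and -0.52 for gngt2a, and the pairs built on these genes moved with it.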
